A study of Mus musculus with 17 samples.

Results

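The 33 genes described here encode enzymes, transporters and one regulatory protein of glycolysis, gluconeogenesis, lactate metabolism and glycogen metabolism. They were chosen by gene symbol, with earlier results of these data known, from 19032 genes listed in both count tables. All 33 had enough reads to be tested in every comparison. Bulk RNA sequencing covered 17 samples from male C57BL6 mice. In liver-specific NgBR knockout (N-LKO) mice, a Cre recombinase driven by the albumin promoter, which acts in hepatocytes, deletes a loxP-flanked NgBR gene (Nus1), which encodes a subunit of cis-prenyltransferase. The labels call the controls WT, and whether they carried loxP sites or Cre was not given in the sources used here. The study names endothelial, stellate and Kupffer cells among liver cells that express NgBR. It does not say whether cholangiocytes of N-LKO mice keep an intact gene. Mice were kept for 16 weeks on 1 of 2 diets. High-fat feeding (HFD) gave 4 WT and 4 N-LKO livers. Western-type feeding (WD), rich in fat and cholesterol, gave 3 livers of each genotype and 3 tumors of N-LKO mice. The labels call the samples biological replicates but do not say whether a tumor and a liver came from the same mouse, and they give no age. The study's methods place all mice on chow from the start and switch them to the diets afterwards.

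Glycolysis splits glucose into pyruvate, which lactate dehydrogenase can turn into lactate, and gluconeogenesis runs the reversible steps backwards, with its own enzymes (Pcx, Pck1, Fbp1, G6pc) at the steps that cannot be reversed. Liver uses the L-type pyruvate kinase (Pklr) and liver forms of glycogen synthase and phosphorylase, whereas fetal tissue and many tumors use hexokinases 1 and 2, aldolase A or C and the M-type pyruvate kinase (Pkm). Hepatocytes near the portal vein make glucose and those near the central vein break it down, so a bulk liver sample mixes both. Nothing in a bulk sample tells fewer cells of a type from less RNA per cell.

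Total estimated counts per library were 9096110 to 12215784 on HFD and 15494731 to 20200618 on WD, and the 33 genes took 0.534% to 0.736% of them on HFD and 0.576% to 0.906% on WD. Nus1 was at 82.5 to 96.2 CPM (counts scaled to a common library size) in WT and 29.4 to 38.0 CPM in N-LKO liver on HFD. On WD it was at 88.2 to 98.9 CPM in WT liver, 41.7 to 51.1 CPM in N-LKO liver and 29 to 44 CPM in tumors, so every library had Nus1 on the side its label gives. Hepatocyte markers were abundant in every library, with a summed level of 44994 CPM or more. Among the WD libraries 2 stood apart in markers of cells other than hepatocytes. WT replicate 2 had the lowest summed macrophage (572 CPM) and cholangiocyte (17.4 CPM) markers and the highest red cell markers (1009 CPM) of the WD libraries, and tumor replicate 2 carried 218 CPM of skeletal muscle markers where no other WD library passed 0.570 CPM. Values without 1 of these libraries, or without tumor replicate 1, are given beside the results that move most. Tumors also had less of the pericentral hepatocyte markers, at 5590.2, 432 and 586 CPM in replicates 1, 2 and 3 against 10961 to 15534 CPM in WT liver. The tumors were thus unlike each other, with replicate 1 nearest to liver in these markers. Diet and count table cannot be told apart, and no level was compared between diets.

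Across all comparisons 6 of the 33 genes were called, and promoter sequence is shown for the 4 of them that hold short motifs known from glycolytic and gluconeogenic promoters. Gpi1 and Pfkp, also called, hold none of these motifs. The windows are the 250 bases before the RefSeq gene start (GRCm38.p6, gene strand), and 32 of the 33 genes had one. Capitals mark ACGTG or its reverse complement CACGT, the core letters of the hypoxia response element, which also lie within the E-box CACGTG, and CGTCA or its reverse complement TGACG, letters of the cAMP response element.
Pgk1, chrX:106186850-106187099, plus strand: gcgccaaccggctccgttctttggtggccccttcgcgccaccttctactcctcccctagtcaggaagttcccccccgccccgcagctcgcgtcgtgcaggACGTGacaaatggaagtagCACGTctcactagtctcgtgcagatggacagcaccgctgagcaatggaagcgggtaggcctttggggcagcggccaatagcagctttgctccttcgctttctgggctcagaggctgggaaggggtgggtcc
Hk2, chr6:82774455-82774704, minus strand: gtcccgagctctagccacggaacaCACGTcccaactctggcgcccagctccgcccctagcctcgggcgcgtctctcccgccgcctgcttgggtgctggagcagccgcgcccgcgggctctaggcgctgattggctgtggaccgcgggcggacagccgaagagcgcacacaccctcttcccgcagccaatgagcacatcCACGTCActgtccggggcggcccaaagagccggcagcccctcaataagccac
Slc16a1, chr3:104638414-104638663, plus strand: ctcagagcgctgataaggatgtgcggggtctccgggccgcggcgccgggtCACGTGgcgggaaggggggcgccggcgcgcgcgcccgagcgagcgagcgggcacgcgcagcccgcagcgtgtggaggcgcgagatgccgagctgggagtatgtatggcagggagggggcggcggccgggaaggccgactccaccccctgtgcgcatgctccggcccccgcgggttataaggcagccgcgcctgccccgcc
Pck1, chr2:173152823-173153072, plus strand: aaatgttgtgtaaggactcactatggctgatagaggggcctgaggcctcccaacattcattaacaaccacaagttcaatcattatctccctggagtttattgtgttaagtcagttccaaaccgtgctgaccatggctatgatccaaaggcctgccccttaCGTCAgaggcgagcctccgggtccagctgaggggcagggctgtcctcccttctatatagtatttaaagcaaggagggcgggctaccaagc
Pgk1, which rose on HFD, has ACGTG starting 150 and CACGT starting 131 bases before the gene start. Hk2, which rose in tumors, has CACGT at 226 and 52 bases, the latter overlapping CGTCA at 50 bases. Slc16a1 has a full E-box CACGTG at 200 bases, and Pck1, the gene that fell, has CGTCA at 90 bases. Over all promoters of the same length, ACGTG on either strand was in 5444 of 32851 windows (16.6%), and it was in 17 of 52 windows (32.7%) of the 33 genes. Some genes have more than 1 window, and the 17 belong to 14 of 32 genes. Of the called genes these 14 hold Hk2, Pgk1 and Slc16a1, and the rest were not called. CACGTG was in 6.02% of all windows and 5 of 52 of these, and CGTCA in 17.8% of all windows and 9 of 52 of these. A match describes the letters of the window and says nothing of binding in these samples.

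The first question was how loss of NgBR changed these genes on HFD. On HFD, Pgk1, the phosphoglycerate kinase that makes the first ATP of lower glycolysis, rose in N-LKO liver and was the only one of the 33 genes called (edgeR quasi-likelihood test, Benjamini-Hochberg adjusted p under 0.05 over all genes tested). That is 1 of 33 against 4.84% of all 13460 genes tested, or 2.56% called higher. Pgk1 (chrX:106187100-106203699, GRCm38) was at 77.5, 66.2, 78.9 and 77.1 CPM in WT and 107, 100, 103 and 106 CPM in N-LKO liver. Every N-LKO library lay above every WT library, with a log2 fold change of 0.47 ± 0.08 (SE), 1.39-fold, and an edgeR adjusted p of 0.0125. With a correction for transcript length and GC content the change was 0.40 at an edgeR adjusted p of 0.028, and Pgk1 was called under 14 of 14 other settings. The deposited Pgk1 values are fractional in every library, so how reads were shared with other places in the genome is uncertain. The same holds for Gpi1, Tpi1, Pgam1, Eno1 and Pklr. Pck1 values were fractional in 8 HFD and 8 WD libraries, and Pfkp values in 6 and 9.

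The neighbouring steps of lower glycolysis sat higher in N-LKO liver on HFD without passing the threshold. The 7 genes grouped here as lower glycolysis start at the aldolase step: Aldoa, Aldoc, Tpi1, Pgk1, Pgam1, Eno1 and Eno3. The label thus takes in the aldolase and triosephosphate isomerase steps that come before Pgk1. Of these 7 genes, 6 had log2 fold changes above 0, with a median of 0.27. The median was -0.01 over all genes tested and 0.16 over the 33 genes, of which 22 were above 0. Aldoc, aldolase C, was at 4.06, 3.15, 4.67 and 4.48 CPM in WT and 7.54, 4.70, 8.16 and 6.48 CPM in N-LKO liver. The 2 groups just failed to overlap, and the log2 fold change was 0.71 ± 0.21 (edgeR adjusted p = 0.0694). Eno1, enolase 1, was at 107 to 147 CPM in WT and at 154 to 161.1 CPM in N-LKO liver (log2 fold change 0.34 ± 0.10, edgeR adjusted p = 0.0664). Aldoa, aldolase A, was at 44.6 to 53.5 CPM in WT and 55.1 to 64.7 CPM in N-LKO liver (0.27 ± 0.09, edgeR adjusted p = 0.0906). These 3 genes, like Pgk1, had no overlap between genotypes. Pgam1, phosphoglycerate mutase, touched at 122 CPM, the highest WT and the lowest N-LKO value (log2 fold change 0.25 ± 0.08, edgeR adjusted p = 0.0899). Tpi1, triosephosphate isomerase, had overlapping ranges of 201 to 226 and 225 to 255 CPM (0.16 ± 0.08, edgeR adjusted p = 0.234). Eno3, the muscle-type enolase, was the exception at -0.31 ± 0.31 and rested on 10 to 25 estimated counts per library.

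The 7 lower glycolysis transcripts are short, with a median length of 1775 bases (1549 to 2786) against 3748 bases for the hexokinase step. With the length and GC correction their median log2 fold change on HFD was 0.18, again with 6 of 7 above 0. In that fit the values were 0.27 for Eno1 (edgeR adjusted p = 0.197), 0.17 for Aldoa (adjusted p = 0.304), 0.70 for Aldoc (adjusted p = 0.11), 0.18 for Pgam1 (adjusted p = 0.297) and 0.07 for Tpi1 (adjusted p = 0.68).

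**Figure D1:**
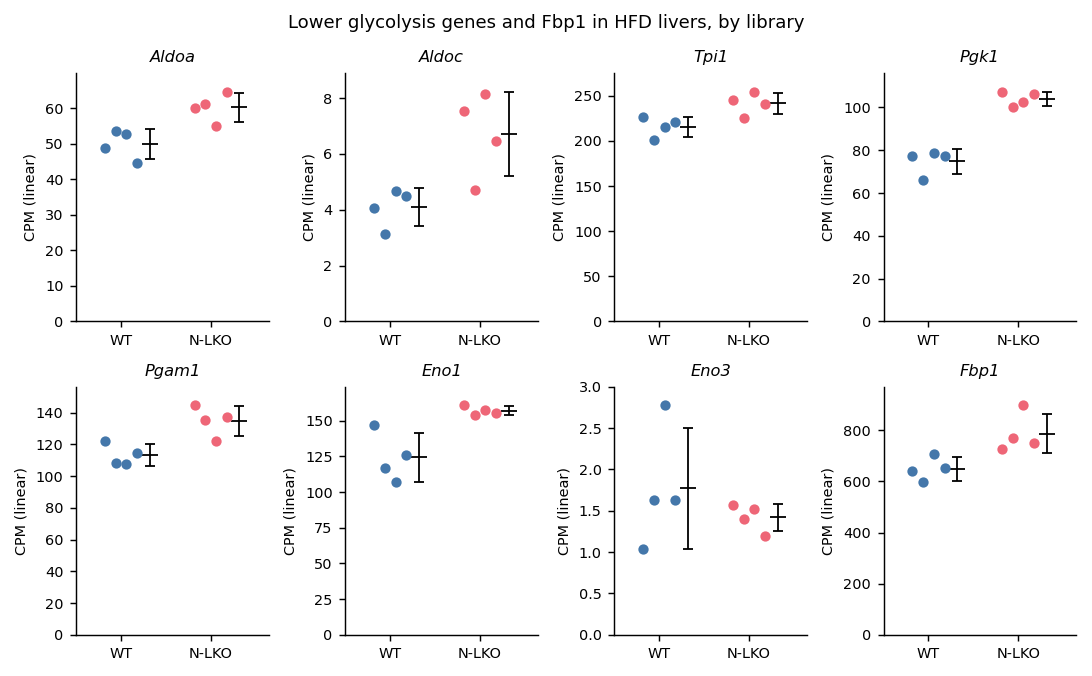
Levels in CPM (y axes, linear from 0) of 8 lower glycolysis and gluconeogenesis genes in WT and N-LKO liver on HFD; each point is a library (n = 4 per group) and the black mark is the mean ± SD. The N-LKO points of Pgk1 (100 to 107 CPM) all lie above the WT points (66.2 to 78.9 CPM), whereas those of Eno3 overlap.

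Among the gluconeogenic genes on HFD, Fbp1, fructose-1,6-bisphosphatase, was at 596 to 708 CPM in WT and 727 to 899 CPM in N-LKO liver, with no overlap (log2 fold change 0.28 ± 0.10, edgeR adjusted p = 0.113). Pcx, the pyruvate carboxylase that opens the pathway, went the other way without overlap, at 338 to 383 CPM in WT and 305 to 333 CPM in N-LKO liver (-0.19 ± 0.08, edgeR adjusted p = 0.166). Pck1 (0.12 ± 0.22), G6pc (0.25 ± 0.21) and Slc37a4 (0.16 ± 0.17), which carry the pathway from oxaloacetate to free glucose, had changes near their errors. In all, 5 of 33 genes (Aldoa, Aldoc, Pgk1, Eno1 and Fbp1) were higher without overlap, where 7.39% of all genes were, and 1 of 33 (Pcx) was lower without overlap, where 7.40% were. An unadjusted edgeR p under 0.05 was reached by 8 of the 33 genes and by 22.7% of all genes.

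The remaining steps varied widely between HFD libraries. Hk2, the hexokinase that many tumors use, was at 3.75, 1.24, 1.45 and 0.611 CPM in WT and 4.31, 1.40, 4.90 and 4.24 CPM in N-LKO liver. Both groups held high and low libraries, and the log2 fold change was 1.06 ± 0.49 (edgeR adjusted p = 0.22). Hk1 (0.57 ± 0.34), Hk3 (-0.61 ± 0.41) and Pfkp (0.28 ± 0.37) were at 2.83 CPM or less on HFD, near the limit of what this depth resolves. The transporters, the regulatory protein Gckr of the hexokinase step, the liver phosphofructokinase Pfkl, the pyruvate kinases, the lactate dehydrogenases and the 4 glycogen genes had log2 fold changes between -0.27 (Pklr) and 0.29 (Slc2a1), and none of these passed. Of the other genes grouped with the phosphofructokinase step, Gpi1, the isomerase just before it, was at 0.20 ± 0.10. Pfkm was at 0.26 ± 0.15, Pfkfb1 at -0.21 ± 0.16 and Pfkfb3 at -0.42 ± 0.27. Cholangiocyte markers were at 54.7 to 100.1 CPM in N-LKO and 20.6 to 38.4 CPM in WT liver on HFD. Of 11 macrophage markers tested, 3 were called lower, against 308 of all 13460 genes. Their summed levels overlapped, at 117.9 to 222.0 CPM in N-LKO and 182.3 to 222.5 CPM in WT liver. The part of either cell type in these results was not tested.

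On WD the same genotypes were compared, and none of the 33 genes was called. The percentage of all 17829 genes called was 0, with 12.4% of all genes at an unadjusted edgeR p under 0.05. Nus1, the deleted gene, was itself not called (log2 fold change -1.02 ± 0.16, edgeR adjusted p = 0.151). A gene that is not called here can therefore still differ between genotypes. DESeq2 and limma-voom called none of the 33 genes either, and 1 of 33, Hk2, had an unadjusted edgeR p under 0.05. Hk2 was at 12.4, 5.90 and 9.07 CPM in WT and 15.4, 14.9 and 17.9 CPM in N-LKO liver, a log2 fold change of 0.81 ± 0.23 (edgeR adjusted p = 0.353). The N-LKO libraries were all above the WT libraries, and without WT replicate 2 the change was 0.58. Hk1, the hexokinase of most tissues, was at 4.88 to 6.80 CPM in WT and 6.80 to 7.83 CPM in N-LKO liver (0.31 ± 0.17, or 0.18 without WT replicate 2). Hk1 and Hk2 were the 2 of 33 genes higher without overlap, against 14.3% of all genes. All 4 genes grouped as the hexokinase step, which include the regulatory protein Gckr, lay above 0. Under other settings Gckr ran from -0.01 to 0.21 and Hk3 from -0.10 to 0.28.

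Gluconeogenic genes on WD had lower values in N-LKO liver, but 1 WT library carried much of that. Pck1, phosphoenolpyruvate carboxykinase, was at 1678, 5393 and 2073 CPM in WT and 1637, 1611 and 1570.1 CPM in N-LKO liver. The N-LKO libraries were nearly equal and just below the lowest WT library, while WT replicate 2 was far above the rest (log2 fold change -0.92 ± 0.45, edgeR adjusted p = 0.427). Without that replicate the Pck1 change was -0.23. G6pc, the glucose-6-phosphatase that releases free glucose, was at 132, 304 and 97.9 CPM in WT and 110.5, 130.4 and 161.6 CPM in N-LKO liver. Its log2 fold change of -0.41 ± 0.39 became 0.22 without WT replicate 2. All 5 genes were below 0, with a median of -0.39, and without WT replicate 2 the median was -0.23 with 1 of 5 above 0. By overlap, 6 of 33 genes (Pfkl, Tpi1, Pgk1, Slc2a1, Pck1 and Pcx), were lower without overlap, against 13.6% of all genes. Lower glycolysis had a median of -0.20 with 1 of 7 above 0, and the 33 genes a median of -0.15 with 12 above 0, against 0.01 over all genes. The 6 genes of the phosphofructokinase step lay between -0.32 (Pfkfb3) and 0.54 (Pfkp), with 1 above 0. The transporters, the pyruvate and lactate genes and the glycogen genes lay between -0.31 (Gys2) and 0.32 (Slc16a1). Summed periportal markers were 1789 to 2581 CPM in N-LKO and 3218 to 3993 CPM in WT liver on WD, and summed hepatocyte markers 44994 to 56927 CPM and 63325 to 76812 CPM. Their part in these values was not tested.

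The 14 livers of both diets were then fitted together to ask if loss of NgBR acted alike on HFD and on WD (an interaction term). Pgk1 was the only one of 33 genes called, against 1.62% of all 15850 genes tested. On WD, Pgk1 was at 95.1, 82.2 and 79.6 CPM in WT and 74.6, 68.0 and 76.8 CPM in N-LKO liver, so that here every N-LKO library was below every WT library (log2 fold change -0.23 ± 0.20, edgeR adjusted p = 0.64). The interaction, the WD effect less the HFD effect, was -0.68 ± 0.13 (edgeR adjusted p = 0.0235). It was called under 14 of 20 other settings, and the 6 others included the length and GC correction (-0.64, edgeR adjusted p = 0.0607) and leaving out any 1 of N-LKO HFD replicate 1, WT WD replicate 1 and N-LKO WD replicates 2 and 3. Aldoa (-0.52 ± 0.15, edgeR adjusted p = 0.0749), Tpi1 (-0.40 ± 0.12, edgeR adjusted p = 0.0903) and Pgam1 (-0.39 ± 0.13, edgeR adjusted p = 0.109) had interactions of the same sign that missed the threshold. In lower glycolysis 1 of 7 genes was above 0 (median -0.40) and in gluconeogenesis 0 of 5 (median -0.53), against a median of 0.00 over all genes. The 33 genes together had a median of -0.24.

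**Figure D2:**
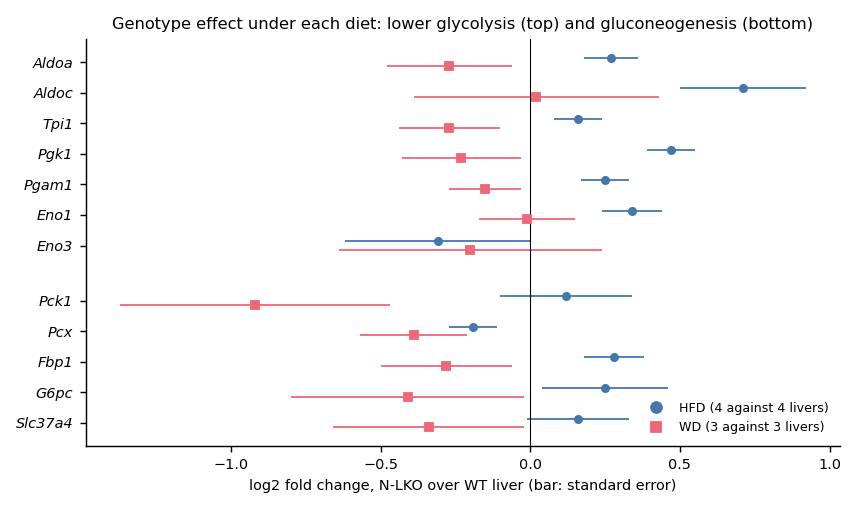
Log2 fold change of N-LKO against WT liver (± SE, x axis) for lower glycolysis and gluconeogenesis genes (y axis), on HFD (circles) and on WD (squares). The 2 marks of Pgk1 lie apart, at 0.47 and -0.23, and all 5 gluconeogenesis squares lie below 0.

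Tumors were compared with WT liver on the same WD, and 5 of the 33 genes were called. Hk2, Gpi1, Pfkp and Slc16a1 rose and Pck1 fell. The background was 14.9% of all genes called, 8.08% higher and 6.80% lower, so that the count of the 33 genes is near it. With the length and GC correction 5 of 33 were called, without Slc16a1 and with Pcx, and 1190 of 2989 calls over all genes were higher, compared with 1440 of 2653 without it. On leaving out any 1 WD library but tumor replicate 1, 1 to 3 of the 33 genes were called, Hk2 each time. The share of all genes called in those fits was 3.07% (without WT replicate 2) to 12.2% (without tumor replicate 3). Without tumor replicate 1 the count was 6 of 33, Hk2 among them, against 20.9% of all genes in that fit.

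Hk2 (chr6:82725025-82774454, minus strand, GRCm38) was at 22.8, 21.2 and 23.2 CPM in tumors against 12.4, 5.90 and 9.07 CPM in WT liver. The tumors agreed closely with each other and exceeded all 6 livers, and the log2 fold change was 1.29 ± 0.23, 2.45-fold (edgeR adjusted p = 0.0112). Hk2 was called under 16 of 16 other settings, with 1.06 without WT replicate 2 (edgeR adjusted p = 0.032) and 1.30 without tumor replicate 2 (edgeR adjusted p = 0.0234).

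Pfkp, the platelet type of phosphofructokinase (chr13:6579768-6648777, minus strand), was at 9.10, 24.3 and 33.8 CPM in tumors against 5.49, 3.46 and 7.81 CPM in WT liver. Tumors 2 and 3 were far above tumor 1, which was below the highest N-LKO liver at 10.1 CPM. The log2 fold change was 2.00 ± 0.45, 3.99-fold (edgeR adjusted p = 0.0208). It was called under 13 of 16 other settings, with 1.75 and an edgeR adjusted p of 0.0826 without WT replicate 2.

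Gpi1, glucose-6-phosphate isomerase (chr7:34201330-34230336, minus strand), was at 110.3, 239 and 184 CPM in tumors against 98.0, 94.4 and 95.5 CPM in WT liver. WT libraries were tightly grouped and tumors spread, with tumor 1 nearest to liver. The log2 fold change was 0.89 ± 0.23, 1.85-fold (edgeR adjusted p = 0.0314), and it was called under 6 of 16 other settings. Without WT replicate 2 the change was 0.87 (edgeR adjusted p = 0.104), without tumor replicate 2 it was 0.58 (edgeR adjusted p = 0.0918), and without tumor replicate 1 it was 1.13 (edgeR adjusted p = 0.00134).

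Slc16a1, the lactate and pyruvate transporter MCT1 (chr3:104638668-104658462), was at 127, 227 and 208 CPM in tumors against 93.2, 106 and 117 CPM in WT liver. All tumors lay above WT liver, but N-LKO livers at 96.4, 165 and 133 CPM overlapped them. The log2 fold change was 0.83 ± 0.25, 1.78-fold, at an edgeR adjusted p of 0.0493, just inside the threshold, and it was called under 3 of 16 other settings. Without WT replicate 2 the adjusted p was 0.136 (change 0.83) and without tumor replicate 2 it was 0.147 (change 0.64).

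Pck1 (chr2:173153048-173159273) was at 1046, 424 and 1038 CPM in tumors against 1678, 5393 and 2073 CPM in WT liver. Every tumor was below all 6 livers, and the level fell to 0.274 of that in WT (log2 fold change -1.87 ± 0.46, edgeR adjusted p = 0.0269). The call was kept under 12 of 16 other settings, and lost with a fit of only these 2 groups and with the replicate number as a block. Without WT replicate 2 the change was -1.17 (edgeR adjusted p = 0.0829) and without tumor replicate 2 it was -1.58 (edgeR adjusted p = 0.0567).

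**Figure D3:**
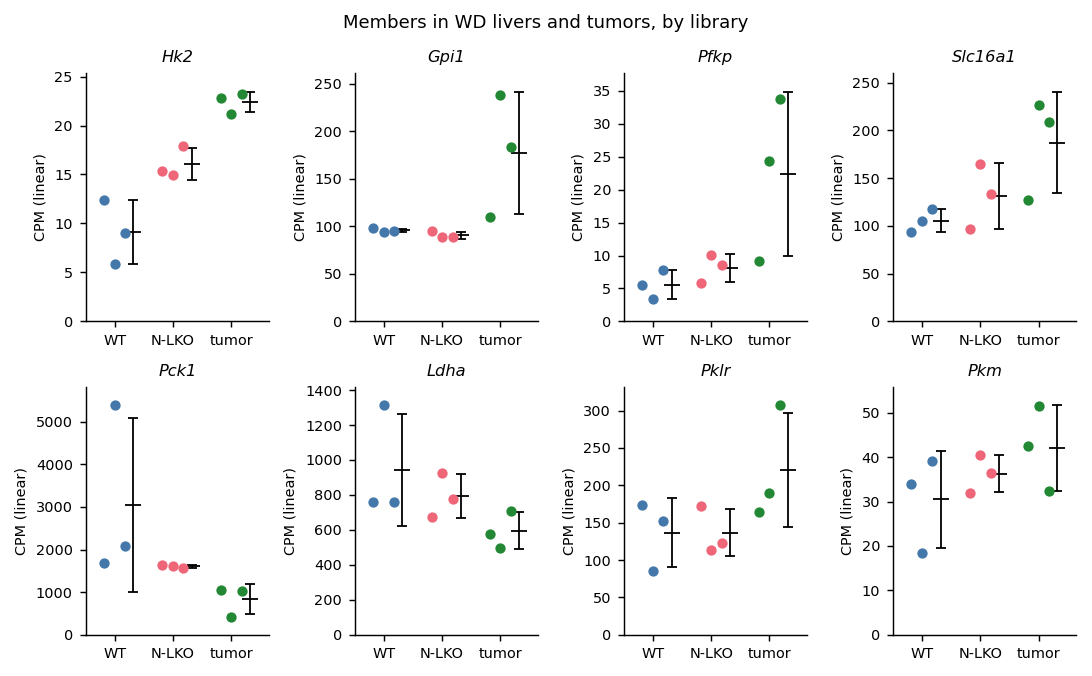
Levels in CPM (y axes, linear from 0) of 8 genes in WT liver, N-LKO liver and tumors on WD; each point is a library (n = 3 per group) and the black mark is the mean ± SD. Hk2 in tumors (21.2 to 23.2 CPM) lies above all livers, Pck1 in tumors (424 to 1046 CPM) below all of them, and 1 WT library of Pck1 stands at 5393 CPM.

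None of the other gluconeogenic genes passed the threshold in tumors against WT liver. Fbp1 was at 495, 416 and 497 CPM in tumors against 652, 922 and 536 CPM in WT liver (log2 fold change -0.58 ± 0.22, edgeR adjusted p = 0.103), or -0.34 without WT replicate 2. Pcx was at 444, 520.0 and 461 CPM against 653, 851 and 599 CPM (-0.56 ± 0.18, edgeR adjusted p = 0.06), or -0.40 without that replicate. G6pc (-0.07 ± 0.39) and the glucose-6-phosphate transporter Slc37a4 (-0.08 ± 0.31) differed from WT liver by less than their errors, and G6pc was at 0.56 without WT replicate 2. The median of the 5 genes was -0.56 with 0 above 0, and -0.34 with 1 above 0 without WT replicate 2.

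Of the pyruvate and lactate genes, Ldha, lactate dehydrogenase A, was at 578, 499 and 709 CPM in tumors against 758, 1315 and 758 CPM in WT liver. The tumors were all lower, and the log2 fold change was -0.66 ± 0.25 (edgeR adjusted p = 0.0964), or -0.35 without WT replicate 2. Pklr was at 164.3, 189 and 308 CPM in tumors and 84.8 to 173 CPM in WT liver (0.69 ± 0.31, edgeR adjusted p = 0.15), or 0.44 without WT replicate 2. Pkm, the M-type pyruvate kinase, was at 42.4, 51.6 and 32.3 CPM in tumors and 18.3 to 39.2 CPM in WT liver (0.46 ± 0.26, edgeR adjusted p = 0.25), or 0.20 without it. Both pyruvate kinases thus had overlapping groups.

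The glycogen genes did not move together in tumors. Gbe1, the branching enzyme, was at 174.7 to 252 CPM in tumors and 99.5 to 176.1 CPM in WT liver (log2 fold change 0.64 ± 0.23, edgeR adjusted p = 0.0802). Gys2, the liver glycogen synthase, was at 103 to 137 CPM in tumors and 147 to 211 CPM in WT liver, lower without overlap (-0.47 ± 0.18, edgeR adjusted p = 0.107), or -0.27 without WT replicate 2. Pygl, the liver glycogen phosphorylase, was at 0.47 ± 0.29 and Ugp2, which makes UDP-glucose, at 0.10 ± 0.20. Of the glucose transporters, Slc2a1 (GLUT1) was at -0.05 ± 0.20 and Slc2a2 (GLUT2) at 0.20 ± 0.21, both within their errors. Among the remaining genes of the first steps, Hk1 was higher without overlap (0.51 ± 0.17, edgeR adjusted p = 0.0712), Hk3 was at -0.45 ± 0.32 and Pfkfb1 at -0.80 ± 0.42 (edgeR adjusted p = 0.215), while Pfkl (0.03 ± 0.22), Pfkm (-0.19 ± 0.29), Pfkfb3 (0.04 ± 0.21) and Gckr (0.11 ± 0.20) were within their errors. The 7 lower glycolysis genes had a median of 0.10 against WT liver, or -0.08 with 3 of 7 above 0 without tumor replicate 2, the one with muscle markers. Eno3, the muscle-type enolase, was at 2.21, 5.29 and 1.36 CPM in tumors, highest in that library. Over all 33 genes the median was 0.10, with 20 above 0, against 0.04 over all genes tested. Counted by overlap, 5 of 33 (Hk1, Hk2, Gpi1, Pfkp and Slc16a1) were higher and 5 of 33 (Ldha, Pck1, Pcx, Fbp1 and Gys2) lower without overlap, against 17.7% and 16.4% of all genes.

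Some marker lists differed along with these results. Summed proliferation markers were 41.9 to 91.7 CPM in tumors, 24.5 to 41.4 CPM in N-LKO liver and 6.38 to 21.5 CPM in WT liver. Summed cholangiocyte markers were 197 to 524, 115 to 151.6 and 17.4 to 69.7 CPM in the same order. T cell markers summed to 9.02 to 12.5, 5.58 to 7.36 and 4.32 to 4.89 CPM in that order. Macrophage markers overlapped between the groups, at 748 to 998, 735 to 903 and 572 to 905 CPM. Of 10 hepatocyte markers, 4 were called lower in tumors than in WT liver, against 6.80% of all genes. The part of these cell types in the changes was not tested.

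Tumors were also compared with N-LKO liver, which shares their genotype, and none of the 33 genes passed, against 0.499% of all genes. DESeq2 called 2 of them (Gpi1 and Pfkp), against 5.73% of all genes with that test. With limma-voom 0 were called, against 0.101% of all genes, and 5 had an unadjusted edgeR p under 0.05 against 18.3% of all genes. Both comparisons use the same tumor libraries, and the N-LKO livers are also the ones compared with WT, so their values are side by side and not independent. Gpi1 was at 94.8, 88.7 and 88.8 CPM in N-LKO liver, below the 110.3, 239 and 184 CPM of tumors (log2 fold change 0.97 ± 0.23, edgeR adjusted p = 0.0869). Pfkp was at 5.87, 10.1 and 8.51 CPM in N-LKO liver and overlapped the tumors (1.46 ± 0.44, edgeR adjusted p = 0.133). Without tumor replicate 1, Gpi1 was at 1.22 (edgeR adjusted p = 0.00141) and Pfkp at 1.83 (edgeR adjusted p = 0.00811), and Aldoa (0.61, edgeR adjusted p = 0.0476) and Pfkfb1 (-1.30, edgeR adjusted p = 0.0387) also passed. These 4 of 33 stood against 12.0% of all genes called in that fit. Aldoa was at 0.18 (edgeR adjusted p = 0.715) without tumor replicate 2, the library with muscle markers.

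Hk2 was at 0.48 ± 0.22 against N-LKO liver (edgeR adjusted p = 0.287), with N-LKO levels between those of WT liver and tumors. Aldoc was at 4.63, 3.83 and 7.04 CPM in tumors against 2.50, 1.95 and 3.67 CPM in N-LKO liver, without overlap (0.93 ± 0.40, edgeR adjusted p = 0.25). Pck1 was lower without overlap at -0.94 ± 0.45 (edgeR adjusted p = 0.301). In all, 5 of 33 (Hk1, Hk2, Gpi1, Aldoc and Gbe1) were higher without overlap, against 11.5% of all genes, and 1 of 33 (Pck1) was lower, against 11.6%. The 33 genes had a median of 0.25 with 25 above 0, against 0.02 over all genes, and all 7 lower glycolysis genes were above 0 with a median of 0.36. Without tumor replicate 2 that median was 0.14 with 6 of 7 above 0. Pfkfb1, the liver form of the enzyme that sets fructose-2,6-bisphosphate, was at 24.9, 9.61 and 8.92 CPM in tumors and 34.1, 13.0 and 21.1 CPM in N-LKO liver (-0.65 ± 0.41, edgeR adjusted p = 0.436).

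**Figure D4:**
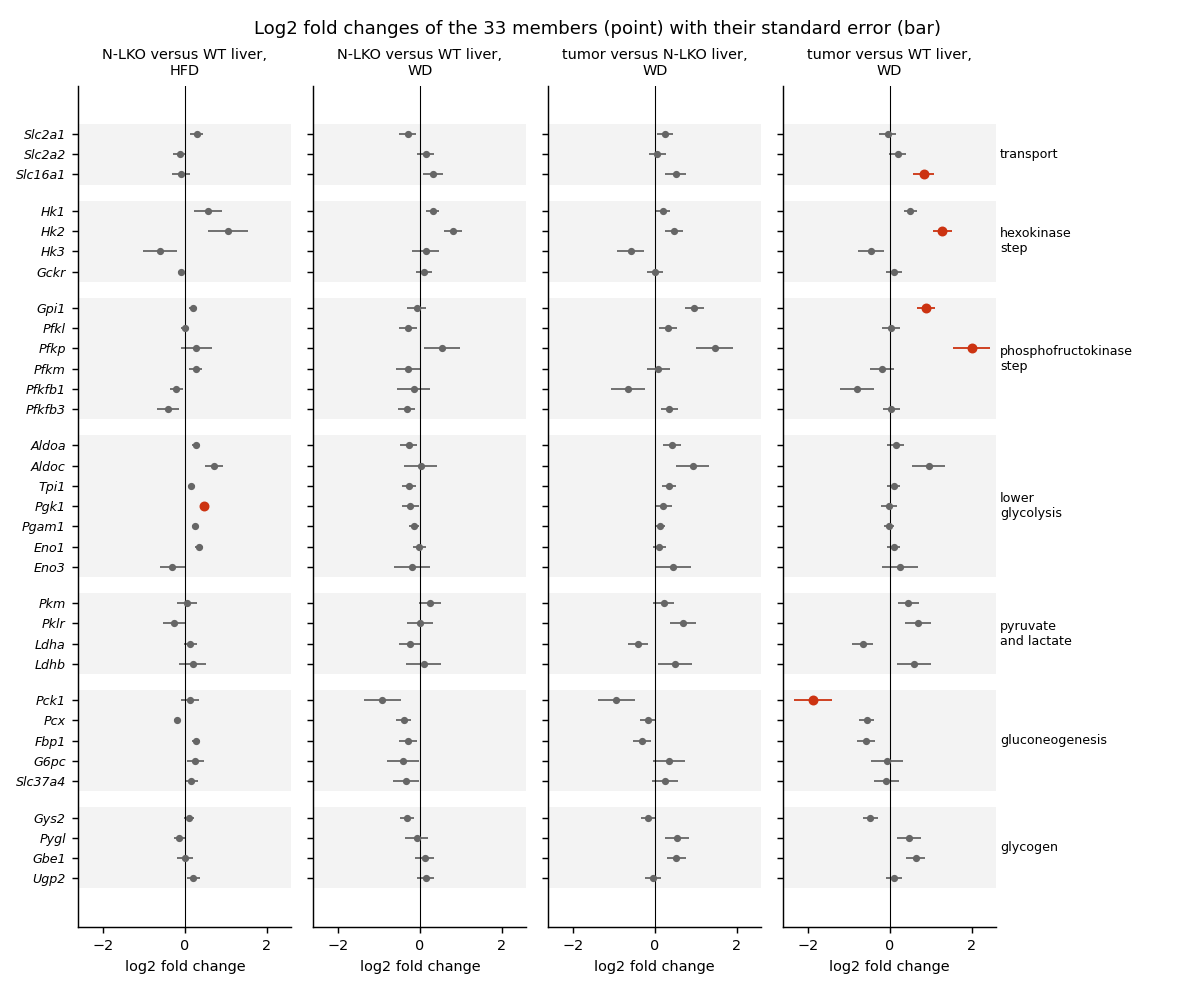
Log2 fold change (± SE, x axes) of the 33 genes, ordered by role (y axis), in 4 comparisons; red marks have an adjusted p under 0.05. Red marks are 1 on HFD (Pgk1), 0 for N-LKO against WT liver on WD, 0 for tumor against N-LKO liver and 5 for tumor against WT liver.

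Liver isoforms were then set against their fetal or widely expressed counterparts as ratios within each library, tested with exact two-sided permutation tests and adjusted over 11 ratios in each of 4 comparisons. None passed, and 3 libraries against 3 cannot give a p below 0.10. In tumors against WT liver, 2 of the ratios described here were higher without overlap. The log2 ratio of Gys1, the glycogen synthase of muscle and most tissues, to Gys2 was -5.87, -6.53 and -5.57 in WT liver and -5.47, -4.52 and -4.43 in tumors, a difference of 1.19 ± 0.44 (exact permutation p = 0.10, adjusted p = 0.367). That of the phosphorylases Pygb to Pygl was -5.45, -5.22 and -4.68 in WT liver and -4.48, -2.29 and -3.55 in tumors, a difference of 1.68 ± 0.67 (exact permutation p = 0.10, adjusted p = 0.367). In both ratios tumor 1 lay nearest to WT liver, and without WT replicate 2 the difference of Gys1 to Gys2 was 0.92.

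The log2 ratio of Pfkp to Pfkl was -2.37, -2.77 and -1.62 in WT liver, -2.0, -1.01 and -1.18 in N-LKO liver and -1.66, 0.51 and 0.04 in tumors. Tumor 1 lay within the WT range, and the difference of tumors from WT liver was 1.88 ± 0.74 (exact permutation p = 0.200, adjusted p = 0.440). The ratio of Pfkfb3 to Pfkfb1 differed by 1.03 ± 0.59 (exact permutation p = 0.300) and that of Pkm to Pklr by -0.19 ± 0.46 (exact permutation p = 0.900), or by 0.26 without tumor replicate 3. Between genotypes the ratios of these 5 pairs differed by -0.19 (Gys1 to Gys2) to 0.39 (Pfkp to Pfkl and Pygb to Pygl) on HFD and by -0.05 (Pfkfb3 to Pfkfb1) to 0.86 (Pfkp to Pfkl) on WD, with overlapping groups. Per kilobase of transcript, Pfkp made up a mean 11%, 17.8% and 32% of phosphofructokinase expression in WT liver, N-LKO liver and tumors on WD. Pklr still made up 80.3% of pyruvate kinase and Gys2 97.4% of glycogen synthase expression in tumors.

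**Figure D5:**
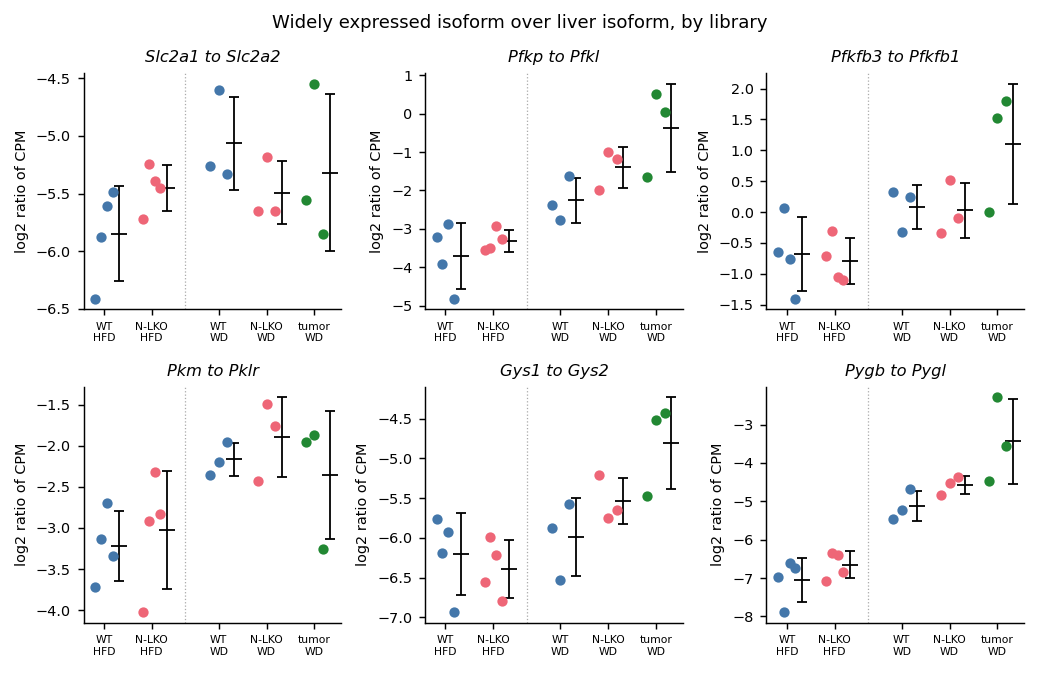
Log2 ratio of CPM (y axes) of a fetal or widely expressed isoform to its liver isoform for 6 pairs, by library, in the 5 groups, with the mean ± SD in black; HFD and WD groups come from separate tables. The tumor ratios of Pygb to Pygl (-4.48 to -2.29) lie above those of WT liver on WD (-5.45 to -4.68), while the ratios of Pkm to Pklr overlap between groups.

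A further 52 genes of the same pathways lie outside the 33. On HFD 0 of the 41 that could be tested were called, and on WD 0 of 50 in N-LKO against WT liver and 0 of 50 in tumors against N-LKO liver, with 9, 8 and 15 at an unadjusted edgeR p under 0.05, where 22.7%, 12.4% and 18.3% of all genes were. In tumors against WT liver 13 of 50 were called, 8 higher and 5 lower, against 14.9%, 8.08% and 6.80% of all genes. Neither these calls nor those of the regulators below were examined under other settings. Over all genes, calls in this comparison fell from 2653 to 569 without WT replicate 2. The higher ones included Pygb, the brain form of glycogen phosphorylase (log2 fold change 2.34, edgeR adjusted p = 0.0118), Pck2, the mitochondrial form of the Pck1 enzyme (1.47, edgeR adjusted p = 0.013), Pfkfb4 (1.30, edgeR adjusted p = 0.0322) and Gapdh (0.55, edgeR adjusted p = 0.034). Pygb was at 13.8, 55.2 and 46.5 CPM in tumors against 8.03, 6.31 and 8.47 CPM in WT liver, with tumor 1 again nearest to liver. The lower ones included the pyruvate dehydrogenase kinases Pdk1 (-0.80, edgeR adjusted p = 0.0107) and Pdk2 (-1.02, edgeR adjusted p = 0.0112), which restrain the entry of pyruvate into the citric acid cycle, and Got1, an aspartate aminotransferase (-1.43, edgeR adjusted p = 0.0327). Of 18 regulators of these pathways (transcription factors, coactivators, hormone receptors, adaptors and a kinase), 4 were called lower in tumors than in WT liver, against 6.80% of all genes, among them Cebpb (-1.22, edgeR adjusted p = 0.00863), Crtc2, a coactivator of Pck1 transcription (-0.79, edgeR adjusted p = 0.0205), and Hnf4a (-0.75, edgeR adjusted p = 0.0266), which also belongs to the hepatocyte marker list.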

How the data were processed

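Total RNA of 17 samples was sequenced by the authors. The notes in the labels name STAR, Partek and mm9, whereas the study's methods name TopHat2 and Ribo-Zero depletion; the version and strand setting are not given in the sources used here. What the authors deposited are estimated counts, which need not be whole, in 1 table for HFD and 1 for WD. They were rounded and used with all 17 library columns. Gene starts matched GENCODE M21 on GRCm38 for 97.2% (HFD) and 96.8% (WD) of genes, so coordinates are given on that build.

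Genes were filtered with filterByExpr, scaled by TMM and tested with the quasi-likelihood F test of edgeR 4.0.16 in R 4.3.3. The HFD libraries were fitted alone, the 3 WD groups in 1 fit and the interaction over 14 livers. Adjusted p is Benjamini-Hochberg over all genes tested, called under 0.05. SE is the absolute log2 fold change divided by the square root of F, an approximation. CPM is on the TMM scale, with a prior count of 2 for ratios. Ratios were tested by exact two-sided permutation (SciPy 1.17.1). Alternatives were DESeq2 1.42.0 size factors and test, limma-voom (limma 3.58.1), no filter, a replicate block, a length and GC offset (spline with 5 degrees of freedom), 2-group fits, a prior count of 0.5 for ratios and leaving out each library. The scripts were tested on data with known answers. Chi-square per degree of freedom between replicates was 8.74 to 116 over 21 pairs, so no library was counted as deposited more than once. P-values measure the spread between these samples. All 33 genes may be named. Every library is given for called genes and for genes without overlap that changed by 0.58 or more on the log2 scale. The genes and lists were chosen with earlier results of these data known, and the promoter motifs after values were seen. No authors' comparison columns were used. Ratios with some isoforms are not reported here.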

Additional observations from a re-analysis of the deposited data

Results flagged for a closer look

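Within the groups of 4 libraries, 4 values lay far from the other 3 of their group, of 66 gene and group pairs examined. Chance gives about 5% of pairs. Pfkfb1 was lowest at 18.9 CPM in WT HFD replicate 3, Pgk1 lowest at 66.2 CPM in WT HFD replicate 2, Pklr highest at 178.2 CPM in WT HFD replicate 1, and Slc37a4 lowest at 56.6 CPM in N-LKO HFD replicate 3.

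The genotype effect on Pgk1 differed between diets, with an interaction of -0.68 on the log2 scale, tested in edgeR over 14 livers at an adjusted p of 0.0235. Diet and count table cannot be told apart in it.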

How the results depend on the processing

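Over 2706 log2 fold changes of the 33 genes under other settings, 141 changed sign. Of these, 12 lay at least 1 SE from 0 in either the reported or the other fit. In all, 36 calls were lost and 22 gained. Of 374 isoform ratio values under other settings, 27 changed sign, all within 1 SD of the value reported. Their p-values on WD could not pass the threshold, so calls there say nothing of stability. On HFD 1 gene was called and DESeq2's test called 4, with 1 to 2 on leaving out 1 library (2 without WT replicate 1, adding Eno1, or N-LKO replicate 2, adding Aldoc); on WD the count was 0 under every setting for N-LKO against WT liver. For tumor against N-LKO liver it was 0, 2 with DESeq2's test and 0 to 4 on leaving out 1 library (4 without tumor replicate 1). For tumor against WT liver it was 5, 9 with DESeq2's test, 1 with a fit of only these 2 groups and 1 to 6 on leaving out 1 library. That count was 1 without WT replicate 2, 2 without WT replicate 1 or tumor replicate 2, 6 without tumor replicate 1 and 3 without any other library. For the interaction it was 1, 4 with DESeq2's test, 0 with the length and GC offset, 0 with the replicate block and 0 to 1 on leaving out 1 library. Correlations of the deviations of same-numbered libraries were -0.12 to 0.107, within the range of differently numbered ones (-0.247 to 0.146). With so few libraries these values cannot tell whether same-numbered samples are paired or share a mouse. The replicate block gave 1 gene on HFD, 0 and 0 for the N-LKO comparisons on WD and 5 for tumor against WT liver (Hk2, Pfkp and Slc16a1 kept, Gpi1 and Pck1 lost, Aldoc and Gbe1 gained), and put the Pgk1 interaction at -0.68 with an edgeR adjusted p of 0.0701.

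Over the whole table, calls on HFD were 652, 1000 with DESeq2's test, 217 with the offset and 179 to 597 on leaving out 1 library. For N-LKO against WT liver on WD they were 0, 100 with DESeq2's test and 6 with a 2-group fit. For tumor against N-LKO liver they were 89, 1021 with DESeq2's test, 18 with limma-voom, 36 with the block, 29 with a 2-group fit and 3 to 2193 on leaving out 1 library (2193 without tumor replicate 1). For tumor against WT liver they were 2653, 3646 with DESeq2's test, 705 with a 2-group fit and 569 to 3819 on leaving out 1 library (569 without WT replicate 2). For the interaction they were 257, 981 with DESeq2's test, 0 with the block, 1 with the offset and 22 to 330 on leaving out 1 library.

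The 12 values that changed sign and lay at least 1 SE from 0 in either fit are given next, with the range under other settings. Slc16a1 on HFD ran from -0.24 to 0.21 (the latter without WT replicate 3). Without WT replicate 2 on WD, N-LKO against WT liver reached 0.06 for Ldha (from -0.39) and 0.22 for G6pc (from -0.70), and G6pc in tumors against WT liver reached 0.56 (from -0.37). Without tumor replicate 2, Eno3 was at -0.29 (up to 0.79 otherwise) and Ldhb at -0.12 (up to 0.84) against N-LKO liver, and Eno3 at -0.51 (up to 0.59) and Ldhb at -0.06 (up to 0.92) against WT liver. Pgk1 in tumors against WT liver ran from -0.22 to 0.20 (the latter without tumor replicate 3), and the Pfkfb1 interaction from -0.33 (without N-LKO WD replicate 1) to 0.36. With the offset, Ugp2 in tumors against WT liver was at -0.19 and the Slc2a2 interaction at -0.04. The cause was not tested. Depth limits Hk1, Hk3, Pfkp, Ldhb and Eno3 most, which had 5 to 30 estimated counts per library on HFD.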
